A study of Arabidopsis thaliana with 9 samples.

Results

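The genes described here encode the 20S core particle of the 26S proteasome and the non-ATPase (RPN) subunits of its 19S cap in Arabidopsis thaliana. They were chosen by locus, from the known subunit families, and not by any measured value. The choice was made with earlier results of these data known. The set holds 41 of the 27444 nuclear protein-coding genes: 12 alpha genes (PAA to PAG), 11 beta genes (PBA to PBG) and 18 RPN genes (RPN1 to RPN13). Of the 41 loci, 30 carry a proteasome or RPN name in the gene table. The other 11, which the table lists without such a name, were named by the usual subunit nomenclature and are given with their loci: PAB2 (AT1G79210), PBE2 (AT3G26340), RPN2a (AT2G32730), RPN2b (AT1G04810), RPN3a (AT1G20200), RPN3b (AT1G75990), RPN7 (AT4G24820), RPN8b (AT3G11270), RPN9a (AT5G45620), RPN9b (AT4G19006) and RPN11 (AT5G23540).

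The 26S proteasome degrades proteins tagged with ubiquitin chains. Its core is a barrel of stacked rings: outer rings of alpha subunits gate the entry, and inner rings of beta subunits carry the proteolytic sites. The 19S cap binds the ubiquitin chains, removes them and unfolds the substrate, and its RPN subunits form the scaffold, the ubiquitin receptors and the lid. In Arabidopsis most subunits are encoded by pairs of paralogs. Blocking the proteasome is known to raise the transcripts of many subunit genes, a response in which the transcription factors NAC053 and NAC078 act.

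The series mapped the binding of another NAC transcription factor, NAC103. Chromatin immunoprecipitation (ChIP) was done on whole 5-day-old 35S:NAC103-GFP seedlings held in 20 µM MG132, a proteasome inhibitor, for 24 h, with 3 replicates and an input for each. The 35S promoter drives the fusion strongly in most tissues, so its level is not the native one. The design text gives MG132 as a means to raise NAC103, which the proteasome otherwise degrades. All ChIP seedlings received this agent, whose target these genes encode, and no ChIP from untreated or untagged seedlings was used here. DNA affinity purification (DAP) put a NAC103-Halo fusion on bare genomic DNA of 5-day-old Col seedlings with no treatment, in 2 replicates with 1 shared input. Effects of the tag, of open or transcribed chromatin and of MG132 cannot be told apart from NAC103 binding in the ChIP lists.

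Each of the 5 samples came with its own deposited list of narrow peaks, of which 4187, 14318 and 17074 (ChIP replicates 1, 2 and 3) and 20746 and 20962 (DAP replicates 1 and 2) lay on the nuclear chromosomes. For each peak the authors' list gives a fold, the ratio of the pileup of fragments at the summit to the local background. ChIP replicate 1 stands apart by its short list. Replicates 2 and 3 decide most ChIP calls below. Read totals stand in no list, so depth is unknown, and nothing says that the replicates came from separate cultures. A gene was called bound in ChIP when at least 2 of the 3 lists had a peak overlapping its span or the 1000 bp on either side, and bound in DAP when both lists did. The gene table gives no strand, so an end of a gene is called lower or upper by its coordinate, and the transcription start is not known here. Genes are not replicates, so counts stand beside the same count over all coding genes, with no test.

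In ChIP, 38 of the 41 genes (92.7%) were bound, against 44.3% of all coding genes. The 3 others, PBE1, RPN9a and RPN12a, had a peak in 1 ChIP list each, so every gene of the set had at least 1 ChIP peak, where 31.3% of all coding genes had none. In DAP, 28 of the 41 (68.3%) were bound, against 59.9% of all coding genes, a share close to the background. Both assays bound 27 of the 41 (65.9%), against 28.2% overall. ChIP alone bound 11 (26.8%, against 16.2% overall), and DAP alone bound 1, the gene PBE1 (2.44%, against 31.8% overall).

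Proteasome genes are somewhat longer than the average gene, and a longer window catches more peaks. The median span was 2621 bp for the 41 and 2078 bp for all coding genes. Among the 19669 coding genes whose spans lay in the range of the 41 (1323 to 5904 bp), ChIP bound 48.6% and DAP 63.5%, values that differ little from those over all genes. In windows of a fixed 500 bp to each side of either gene end, ChIP bound 35 of the 41 (85.4%), against 36.3% of all coding genes. When the peaks of at least 2 replicates also had to overlap each other, 36 of the 41 (87.8%) were bound, against 39.6%.

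The 5 lists contributed unequally. A peak lay in the windows of 14 of the 41 genes (34.1%) in ChIP replicate 1, against 17.0% of coding genes, of 40 (97.6%) in replicate 2, against 50.8%, and of 39 (95.1%) in replicate 3, against 59.7%. In DAP the numbers were 31 (75.6%, against 64.4%) and 30 (73.2%, against 64.7%). The 14 genes of ChIP replicate 1 had a peak in all 3 lists (34.1%, against 14.6% of all coding genes). With replicate 2 or replicate 3 left out, a peak in both remaining lists was required. The ChIP count then fell to these 14, where 16.3% and 14.9% of all coding genes were bound. At a −log10 q of at least 3, ChIP still bound 34 of the 41 (82.9%), against 35.7%. Fewer calls held at stricter settings than this. With peaks of a −log10 q of at least 10, ChIP bound 10 of the 41 (24.4%), against 5.68%. With the 4187 top peaks of every list it bound 16 (39.0%), against 15.4%.

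**Figure D1:**
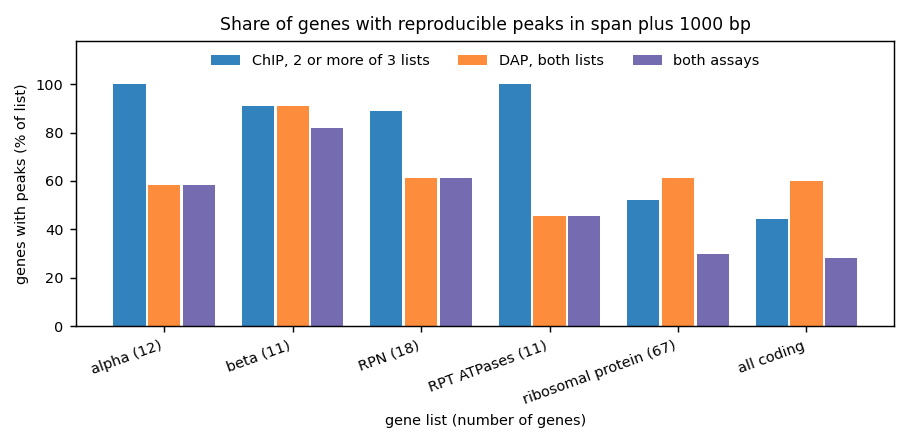
Share of genes (y axis, % of each list) with reproducible peaks in the gene span plus 1000 bp, for the alpha, beta and RPN genes, the RPT ATPases, ribosomal protein genes and all coding genes (x axis), with bars for ChIP, DAP and both assays. The ChIP bars of the 3 classes lie at 88.9% or higher, above the 44.3% of all coding genes, while the DAP bars lie between 58.3% and 90.9%, around the 59.9% of all coding genes or above it.

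At the deposited threshold the ChIP shares of the 3 classes lay closer together than their DAP shares. ChIP bound 12 of 12 alpha genes, 10 of 11 beta genes (90.9%) and 16 of 18 RPN genes (88.9%). DAP bound 7 of 12 alpha genes (58.3%), 10 of 11 beta genes (90.9%) and 11 of 18 RPN genes (61.1%). Both assays bound 9 of 11 beta genes, 7 of 12 alpha genes and 11 of 18 RPN genes. With peaks of a −log10 q of at least 10, ChIP bound 5 beta genes (45.5%), 2 alpha genes (16.7%) and 3 RPN genes (16.7%). The difference between the classes was not tested, and 11 genes is a small class. For comparison, ChIP bound 11 of the 11 RPT genes, which encode the ATPases of the same cap, and DAP bound 5 of them (45.5%). Of 67 genes with a ribosomal protein name, another set of broadly expressed complexes, ChIP bound 35 (52.2%) and DAP 41 (61.2%). These genes are shorter, with a median span of 1573 bp against 2621 bp for the 41, so the comparison is not one of like windows.

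**Figure D2:**
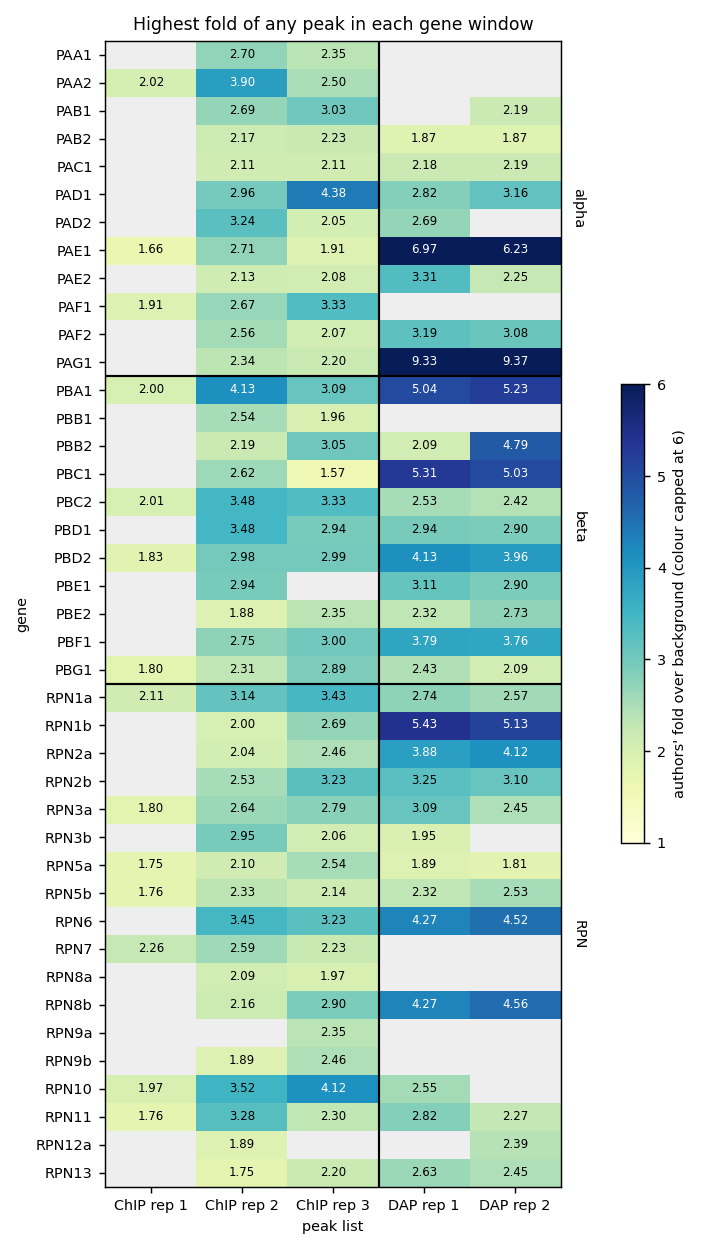
Highest authors' fold (colour and number) of any peak in the window of each of the 41 genes (rows, grouped as alpha, beta and RPN) in the 5 peak lists (columns); grey cells have no peak. ChIP replicate 1 is mostly grey, ChIP replicates 2 and 3 are nearly filled at folds of 1.57 to 4.38, and the highest folds, 9.33 and 9.37, are the DAP peaks of PAG1.

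The alpha subunits form the outer rings of the core and its gate. In what follows 3 ChIP folds stand for replicates 1, 2 and 3, and 2 ChIP folds for replicates 2 and 3, with no peak in replicate 1. Where no region is named, each is the highest fold of its list in the window. The folds of a gene can thus lie at different sites. PAA2 had ChIP folds of 2.02, 3.90 and 2.5 and no DAP peak. Its replicate 2 peak ran over chr2:2234084-2237206 (TAIR10), and its summit lay 214 bp inside the lower end of the gene. At that summit the fold and p-value correspond to 102 fragments over a background of 25.4. Its paralog PAA1 had ChIP folds of 2.70 near its lower end and 2.35 near its upper end, and no DAP peak. The pair was thus bound in ChIP at both copies and in DAP at neither.

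PAF1, which a study of arsenic tolerance also named ARS5, had ChIP folds of 1.91, 2.67 and 3.33 and no DAP peak. Its ChIP region spanned chr5:17158478-17159698, across the lower end, where replicate 2 gave 2.63. The replicate 2 fold of 2.67 lay at another site, 231 bp inside the upper end. PAF2 had ChIP folds of 2.56 near its upper end and 2.07 near its lower end, against 3.19 and 3.08 in DAP. The DAP summit of PAF2 lay 892 bp inside the gene, between ChIP regions at both of its ends. The span of GAMMA CA2, a gene of a mitochondrial carbonic anhydrase-like protein, overlapped the DAP region and the upper ChIP region.

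PAD1 had the highest fold of the 41 genes in any ChIP list. Replicate 3 gave it 4.38 at a summit 23 bp inside the lower end, with 91 fragments over a background of 20.0, and replicate 2 gave 2.95 in the same region, chr3:19030728-19031370. A further region at its upper end had folds of 2.96 and 2.59. Its DAP peaks (2.82 and 3.16) lay 1105 bp outside the upper end, inside the neighbour AT3G51270. PAD2 had ChIP folds of 3.24 and 2.05, with a replicate 2 peak of 2759 bp that covered the whole gene and reached into AT5G66130 (ATRAD17). It had a DAP peak in replicate 1 alone (2.69).

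PAE1 had one of the strongest DAP sites of the set. Its DAP folds of 6.97 and 6.23, with 335 and 312 fragments at the summit, ranked at percentiles 96.8 and 95.2 of their lists. The summit of the DAP region, chr1:20103672-20104089, lay 129 bp inside the lower end. A ChIP region over the same end had folds of 1.66 in replicate 1 and 2.71 in replicate 2, at percentiles 7.59 and 89.3 of their lists, with its summit 140 bp from that of DAP. PAE2 had DAP folds of 3.31 and 2.25 inside its lower end, while its ChIP peaks (2.13 and 2.08) lay beyond its upper end and inside the neighbour AT3G14300. A call at PAE2 in both assays is therefore no shared site.

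PAG1, which has no paralog in the set, held the strongest DAP peak of the set. Its folds were 9.33 and 9.37, at percentile 99.0 of both lists, with 449 and 470 fragments over backgrounds of 47.2 and 49.3. The summit of that region, chr2:11526996-11527473, lay 1001 bp outside the lower end and inside CYP705A9, a cytochrome P450 gene. ChIP at PAG1 reached 2.34 and 2.20 inside the gene. At the DAP site ChIP had 1 overlapping peak, of 1.93 in replicate 2, with its summit 779 bp outside the end. PAC1 stood at 2.11 in both ChIP replicates and 2.18 and 2.19 in DAP, and the replicate 2 value lay 1277 bp outside its upper end, inside CWLP.

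PAB1 and PAB2 were the remaining pair. PAB1 had ChIP folds of 2.69 and 3.03, but the summits lay at opposite ends, joined by a replicate 2 peak of 3814 bp that covered 96.8% of the gene. It had a DAP peak in replicate 2 alone (2.19). PAB2 had ChIP folds of 2.17 outside its lower end and 2.23 inside its upper end. DAP gave PAB2 1.87 in both lists, the lowest of any alpha gene in DAP.

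The beta subunits line the chamber, and PBA, PBB and PBE are the families that carry the active sites. PBA1, the only copy of the first of these, was bound in all 5 lists. Its highest ChIP folds were 2.00, 4.13 and 3.09, and its DAP folds were 5.04 and 5.23. The replicate 2 value was the highest of the 41 genes in that list, with 107 fragments over a background of 25.2. Around the lower end the ChIP region chr4:15188556-15189914 and the DAP region chr4:15188403-15189551 overlapped by 996 bp, with summits 146 bp apart. A further ChIP region in all 3 lists lay at the upper end, with folds of 2.00, 3.16 and 2.60 and no DAP peak.

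The other catalytic families were bound less evenly. PBB1 had ChIP folds of 2.54 near its upper end and 1.96 near its lower end, and no DAP peak. PBB2 had ChIP folds of 2.19 and 3.05 at a region that overlapped a DAP region of 4.29 and 4.79, with summits 76 bp apart. Within the window itself the highest DAP replicate 1 fold was 2.09. These summits lay 1148 bp and 1224 bp outside the upper end and inside the neighbour AT5G40590. PBE1 had peaks in 1 ChIP list, replicate 2 at 2.94, and its DAP peaks (3.11 and 2.90) lay 256 bp outside its upper end. PBE2 stood at 1.88 and 2.35 in ChIP and 2.32 and 2.73 in DAP. PBE was the only beta pair in which ChIP called 1 copy and not the other.

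Of the non-catalytic beta genes, PBC2 ranked high in ChIP by its mean percentile of fold, behind RPN1a and RPN10 alone. This mean took 0 for a list without a peak. Over lists with a peak alone, PAD1 had the highest mean (95.3), and PBC2 had 80.7. The ChIP folds of PBC2 were 2.01, 3.48 and 3.33, at an upper-end region of chr1:29097821-29099330 found in all 3 lists, 359 bp outside the gene. At its lower end ChIP (2.27 and 3.18) and DAP (2.25 and 2.42) shared a site with summits 74 bp apart. PBC1 showed the reverse order of the assays, at 2.62 and 1.57 in ChIP and 5.31 and 5.03 in DAP, with a DAP summit 105 bp inside its lower end. The value of 1.57 in replicate 3 was the lowest of the set in that list.

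PBD1 and PBD2 were bound by ChIP and DAP at both copies. PBD1 had ChIP folds of 3.48 and 2.94 at its upper end, where DAP folds were 2.32 and 2.29 and the summits lay 100 bp apart, and DAP folds of 2.90 and 2.90 near the lower end, where ChIP replicate 2 alone had a peak (1.78). PBD2 had a lower-end site with ChIP folds of 2.98 and 2.99, DAP folds of 3.23 and 2.57 and summits 48 bp apart. Its stronger DAP peak (4.13 and 3.96) sat at the upper end. ChIP replicate 1 gave PBD2 1.83, inside the gene.

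PBF1 and PBG1 have no paralog here. PBF1 had ChIP folds of 2.75 and 3.0 at chr3:22473462-22474191, near its upper end, which overlapped a DAP region of 2.53 and 2.47. Its strongest DAP peak (3.79 and 3.76) lay 567 bp inside the lower end, where a wide replicate 2 peak (2.64) was the only ChIP peak. PBG1 was in all 3 ChIP lists at its lower end, at 1.80, 1.70 and 2.89, and its DAP peaks (2.43 and 2.09) lay further inside.

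Among the cap subunits, RPN1, RPN2, RPN10 and RPN13 belong to the base or bind ubiquitin. RPN1a ranked first of the 41 in ChIP, with highest folds of 2.11, 3.14 and 3.43. Its region in all 3 lists, chr2:8857964-8858317, lay 802 bp outside the lower end with folds of 2.11, 2.42 and 3.43, and the 3 summits fell within positions 8858148 to 8858160. It had no DAP peak there, and the neighbour AT2G20570 (GPRI1) lay nearer to the site. ChIP (1.89 and 2.47) and DAP (2.74 and 2.57) met instead at the lower end itself, with summits 46 bp apart. The highest ChIP folds of RPN1b were 2.00 at its lower end and 2.69 at 605 bp outside its upper end, inside the neighbour AT4G28480.

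RPN1b also held the closest match of the assays. ChIP peaks of 1.80 and 2.37 and a DAP site of 5.43 and 5.13 had summits 6 bp apart, 863 bp and 869 bp outside its lower end. The neighbour AT4G28460 lay nearer to that site than RPN1b itself. RPN2a had DAP folds of 3.88 and 4.12 at 11 bp outside its lower end and ChIP peaks of 2.04 and 2.46 that fell at different places in the gene, so no ChIP region was shared by replicates. RPN2b had 3 reproducible ChIP regions with folds up to 2.53 and 3.23, and DAP folds of 3.25 and 3.10 at its lower end.

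RPN10, a receptor for ubiquitin chains, ranked second in ChIP. Its folds were 1.97, 3.52 and 4.12, the last with 83 fragments over a background of 19.4. The replicate 2 peak was 3173 bp long and covered 97.7% of the gene. DAP gave peaks in replicate 1 alone, of 2.55 and 2.47. RPN13, the other receptor, had ChIP folds of 1.75 and 2.20 at opposite ends of the gene and DAP folds of 2.63 and 2.45 in its interior, 1492 bp from the nearer end.

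The lid subunits include RPN11, the enzyme that cuts ubiquitin chains off the substrate, and its partner RPN8. RPN11 had ChIP folds of 1.76, 3.28 and 2.30, against 2.82 and 2.27 in DAP. The replicate 2 peak, chr5:7937685-7940335, covered 97.2% of the gene, and its summit lay 123 bp outside the upper end and inside the neighbour AT5G23550. RPN8a had ChIP folds of 2.09 and 1.97 and no DAP peak. RPN8b reached 2.16 and 2.90 in ChIP and 4.27 and 4.56 in DAP, and its replicate 3 and DAP peaks lay together just beyond the upper end, at 78 bp and 110 bp.

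The other lid genes encode RPN3, RPN5, RPN6, RPN7, RPN9 and RPN12. RPN6 reached 3.45 and 3.23 in ChIP and 4.27 and 4.52 in DAP. At its upper end, where ChIP replicate 3 gave 2.74, the ChIP and DAP summits lay 95 bp apart. RPN7 had ChIP folds of 2.26, 2.59 and 2.23 and no DAP peak, and its replicate 1 value was the highest of the 41 in that list. RPN3a had ChIP folds of 1.80, 2.64 and 2.79, with a region in all 3 lists at chr1:7003869-7004747, and its DAP peaks (3.09 and 2.45) lay at another site. RPN3b had ChIP folds of 2.95 and 2.06 and 1 DAP peak in replicate 1 (1.95).

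RPN5a and RPN5b were the only pair in which both copies had a peak in all 3 ChIP lists. RPN5a had highest folds of 1.75, 2.10 and 2.54 and RPN5b of 1.76, 2.33 and 2.14. RPN5a had a region in all 3 lists at its lower end, where replicate 3 gave 2.42. The replicate 3 fold of 2.54 lay near its upper end. RPN5b had no region in all 3 lists. Its highest summits lay 406 bp outside the lower end, 225 bp inside it and 73 bp outside the upper end. The DAP folds were 1.89 and 1.81 for RPN5a and 2.32 and 2.53 for RPN5b. RPN9b had ChIP folds of 1.89 near its upper end and 2.46 outside its lower end, and no DAP peak. RPN9a was the least marked gene of the set, with a single peak in all 5 lists, of 2.35 in ChIP replicate 3 at 22 bp inside its lower end. RPN12a had 1 peak in ChIP replicate 2 (1.89) and 1 in DAP replicate 2 (2.39).

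**Figure D3:**
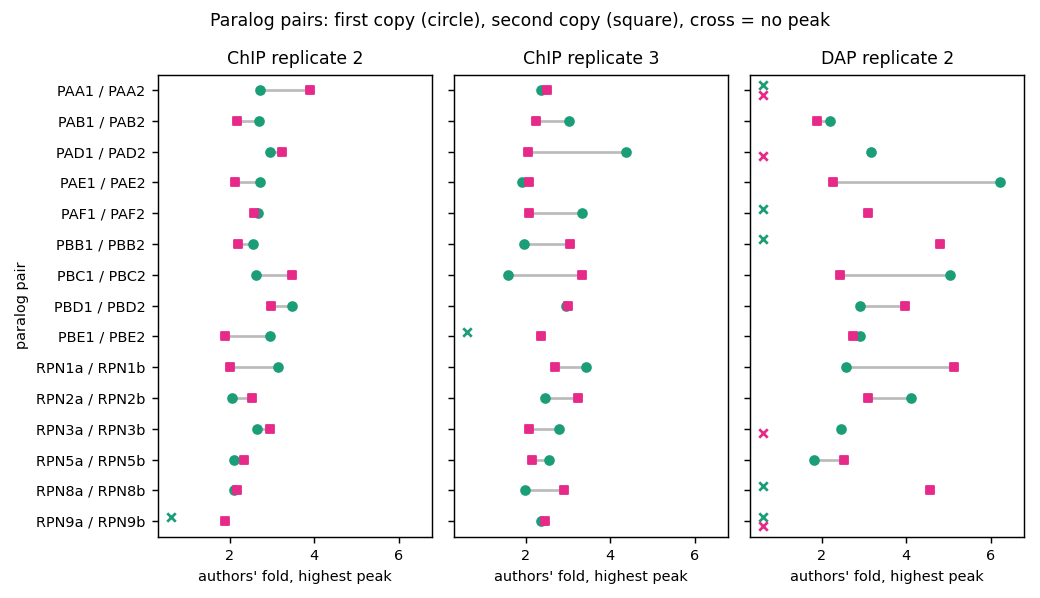
Highest authors' fold (x axis) in ChIP replicate 2, ChIP replicate 3 and DAP replicate 2 for the 15 paralog pairs (y axis); the circle is the first copy, the square the second, and a cross marks no peak. In the ChIP panels nearly every pair has a value for both copies, whereas in DAP replicate 2 several pairs have a cross for 1 copy and PAA1 and PAA2, like RPN9a and RPN9b, have none.

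Paralogs were mostly bound together in ChIP and often not in DAP. Of the 15 pairs, ChIP bound both copies in 13 and 1 copy in 2, namely PBE and RPN9. DAP bound both copies in 7 pairs, 1 copy in 6 and neither in 2. The pairs with 1 copy bound in DAP were PAB, PAD, PAF, PBB, RPN3 and RPN8. With 92.7% of the 41 genes bound in ChIP, few pairs could differ, so that count says little about pairs as such. By presence in all 3 ChIP lists, 7 pairs differed between copies and 1 pair had both copies. With 68.3% of the 41 genes bound in DAP and 34.1% present in all 3 ChIP lists, split pairs are common among any genes. Those counts therefore say little about pairs either, and no share over other paralog pairs was computed.

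The fold ranks of these genes differed between lists. In ChIP replicate 2 the highest fold per gene had a median of 2.60 over the 40 genes with a peak, at a median percentile of 86.1 of that list, against a median of 58.9 for the highest peak of all coding genes with one. In replicate 3 the medians were 49.4 and 58.1, and in replicate 1 they were 38.5 and 50.4. For the set as a whole, ranks above the background were thus seen in replicate 2 alone of the 3 ChIP lists. A highest value over more peaks ranks higher by itself. The 41 genes held on average 0.561, 2.15 and 1.59 peaks in replicates 1, 2 and 3. All coding genes, with or without a peak, held 0.198, 0.768 and 0.889. The part of peak number in these ranks was not tested. The classes differed in replicate 3, with median percentiles of 73.8 for beta, 49.4 for RPN and 33.2 for alpha genes. There the beta genes alone lay above the background. In DAP the median percentiles were 57.7 and 57.3, against 62.0 and 62.2 for all coding genes. Across the genes with a peak in both lists, highest folds correlated between DAP replicates (Spearman 0.792, 28 genes) and less between ChIP replicates 2 and 3 (0.376, 38 genes). The 6 values between a ChIP and a DAP list lay between -0.00523 and 0.217, over 10 to 31 genes. These are descriptions over genes, and the DAP replicates share an input.

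Most ChIP summits lay near a gene end, here and at other genes. Of the 56 reproducible ChIP regions at 36 genes, 42 (75.0%) had their best summit within 500 bp of an end of the gene, and the median over the 56 was 228 bp. The share was 61.9% for the reproducible ChIP regions in the windows of all coding genes. At 9 genes such regions lay within 500 bp of both ends. Of the 36 DAP regions at 28 genes, 22 (61.1%) were that close, against 42.4% over all coding genes. By single lists, 69.6%, 65.9% and 64.6% of the ChIP summits of replicates 1, 2 and 3 lay within 500 bp of an end, against 61.2%, 57.8% and 65.9% over the windows of all coding genes, so replicate 3 showed no excess. For DAP the shares were 53.3% and 54.3%, against 43.1% in both lists. Of the 56 ChIP regions, 25 overlapped another coding gene too, so a part of these peaks cannot be given to the proteasome gene alone.

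**Figure D4:**
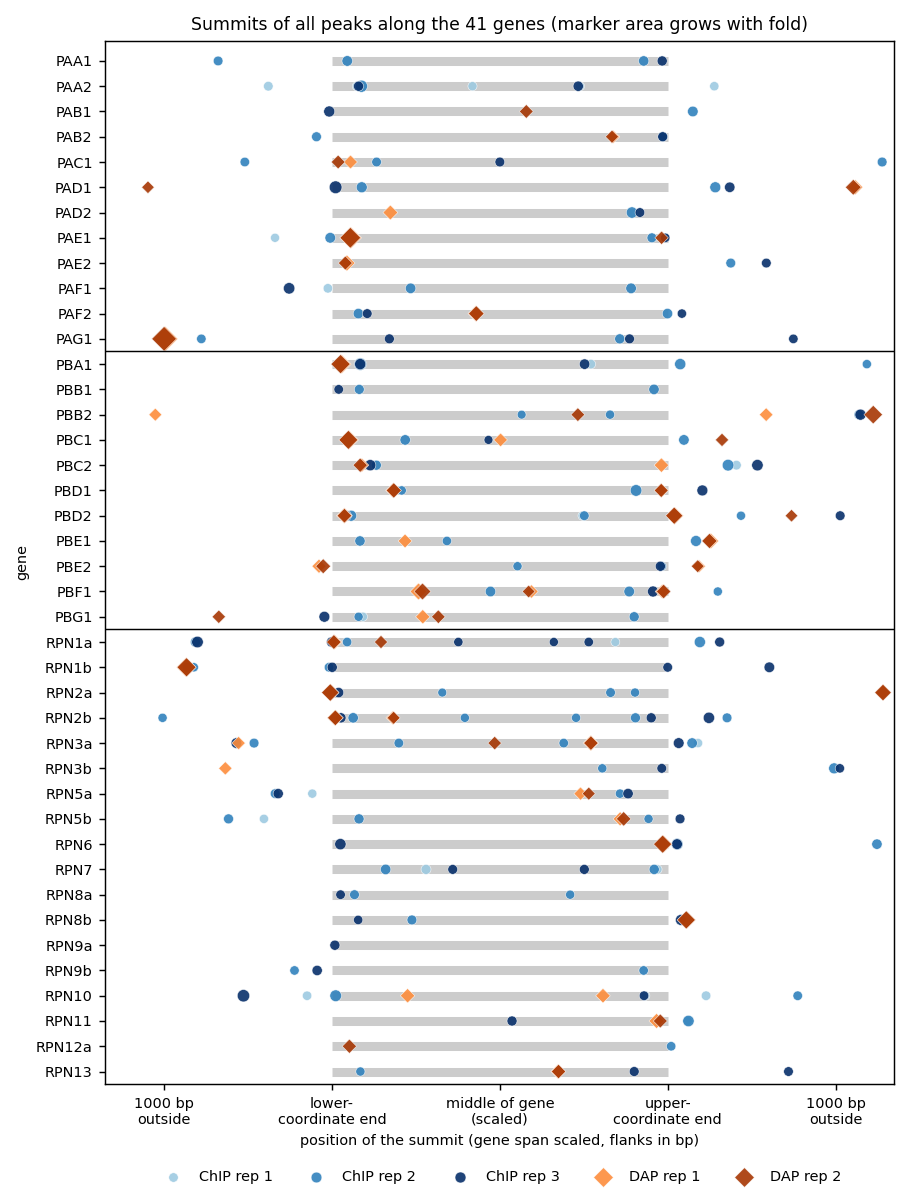
Position of the peak summits along the 41 genes (rows; grey bars are gene spans scaled to equal length, flanks in bp from the lower- and upper-coordinate ends), with circles for the 3 ChIP lists, diamonds for the 2 DAP lists and marker area growing with the authors' fold. The DAP summits of PBD1 at 2014 and 2012 bp outside its lower end are not drawn. ChIP circles gather at the gene ends, with reproducible regions within 500 bp of both ends at 9 genes, and DAP diamonds coincide with them at some genes, such as RPN1b (6 bp apart) and RPN1a (46 bp), and stand apart at others, such as PAE2.

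At 17 of the 41 genes (41.5%) a reproducible ChIP region overlapped a reproducible DAP region, against 13.2% of all coding genes. Of the genes with such a ChIP region the overlap held for 17 of 36 (47.2%), against 3629 of 10865 (33.4%) overall. It held for 8 of 11 beta genes, 6 of 18 RPN genes and 3 of 12 alpha genes. ChIP regions at the 41 genes were wider (median 824 bp, against 599 bp at all coding genes), and wider regions overlap others more readily; the part of width in this difference was not tested. Of the 19 overlapping pairs of regions, 7 had summits at most 100 bp apart, at PBB2, PBC2, PBD1, PBD2, RPN1a, RPN1b and RPN6. The count of genes was 16 without ChIP replicate 1, but 1 without replicate 2 and 3 without replicate 3. In each case both remaining ChIP lists were required. No share of all coding genes is given for these counts, so they have no background here.

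ChIP peaks of replicate 2 often ran over the length of the gene. Peaks of that list covered at least 50% of the span at 17 of the 41 genes (41.5%), against 6.19% of all coding genes. This measure was chosen after the peaks of the 41 genes had been seen. The 17 were 6 alpha, 6 beta and 5 RPN genes, and PAD2 was covered whole, and coverage was 97.7% at RPN10, 97.3% at PAA2, 97.2% at RPN11, 96.8% at PAB1, 81.1% at PBF1 and 80.1% at RPN7. Of the 11 RPT genes 5 were covered in this way, and of the 67 ribosomal protein genes 1. In replicate 3 the number was 3 of 41 (7.32%), at PAA2, RPN7 and RPN11, against 3.06% of all coding genes. In replicate 1 it was 0, against 0.357%, a share near the background. In DAP, no gene of the set reached 50% in either list, against 3.18% and 3.36% of all coding genes. Among coding genes in the span range of the 41 the shares were 1.92% and 2.07%, so this too is near the background. The median DAP coverage was 9.69% and 9.62%, against 0.0% in both lists for all coding genes. It was 2.21% and 3.39% for coding genes in that span range. Replicate 2 also had the widest peaks of the ChIP lists over the whole genome (median 381 bp, against 307 and 363 bp), and the part of transcription in these long peaks was not tested.

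**Figure D5:**
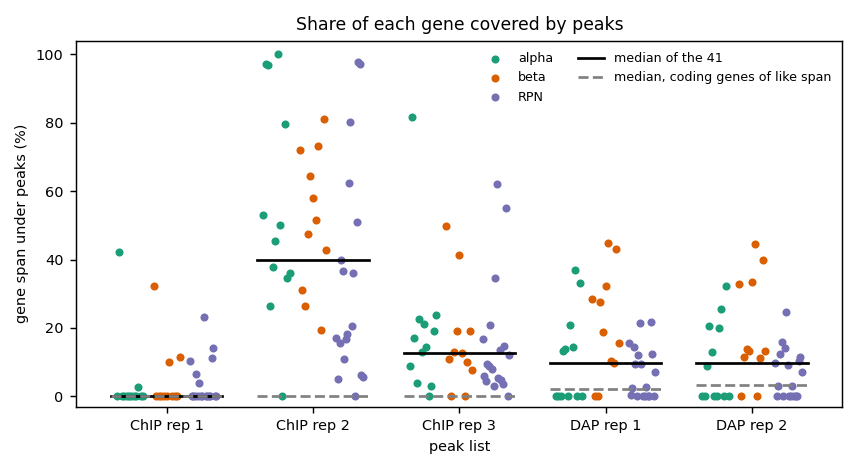
Share of each gene span lying under peaks (y axis, %) in the 5 lists (x axis), 1 point per gene coloured by class, with the median of the 41 genes (solid line) and of coding genes of like span (dashed line). ChIP replicate 2 stands apart, with a median of 39.9% and 5 genes above 95%, whereas DAP points stay below 50%.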

How the data were processed

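Each deposited list compares 1 replicate with input, per the file names. BWA and MACS2 on TAIR10 are named in the submitters' processing notes, with no versions, and the parameters are not given in the sources used here. The deposited lists give a score, a fold (ratio) at the summit, a p-value and a q-value as −log10, and the summit's distance from the peak's start. The authors' fold only describes or ranks peaks within a list. The smallest deposited −log10 q was 1.30, so weak peaks are included. Peaks on organellar genomes were left out.

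Gene spans came from the RefSeq table of TAIR10.1. Its fit was checked: on 5 of 5 chromosomes more ChIP replicate 3 summits lay within 300 bp of a gene end than after shifts of 2000 bp. Regions join peaks of an assay that share 1 bp or more (ChIP from at least 2 lists, DAP from both). Regions chain wide peaks together. Genes were ranked by the mean percentile of their highest fold, with 0 for a list without a peak. Fragments at a summit were recovered by assuming that MACS2 adds 1 to pileup and background for the fold and takes a Poisson p-value without it; a whole number fitted within 0.01 for 99.1% to 99.9% of peaks per list.

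The members, classes and lists were chosen with earlier results of these data known. Genes to describe in full were those with peaks in all 3 ChIP lists, in both assays, ranked high in either, or in discordant pairs. Ribosomal protein genes were taken by name, cytosolic and organellar alike, since the table does not always tell them apart. Sequence motifs were not analysed here, since no genome was used. Window counting was tested on simulated data, where 150 of 150 genes had the right number of lists. These were genes of chromosome 1 far from their neighbours, with narrow simulated peaks. Wide peaks and peaks shared with neighbours were therefore not tested. Alternatives were stricter peaks, equal list lengths, other windows, other overlap rules and left-out replicates. Calculations used Python 3.11.15 with pandas 2.3.3 and scipy 1.17.1.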

Additional observations from a re-analysis of the deposited data

How the results depend on the processing

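Of 177 alternative values, 128 stayed within 1.5 times the reported count and 49 moved further. Some of the 128 could not move: a left-out ChIP list cannot alter a DAP count, nor a left-out DAP list a ChIP count. The overlap count likewise did not use the rules on summits, share of the peak in the window or fixed gene ends. The 128 are therefore no measure of stability. No paired analysis was possible because replicate numbers of ChIP and DAP name unrelated libraries and no result comes from a test. With a −log10 q of at least 10, ChIP bound 10 genes of the set (2 alpha, 5 beta, 3 RPN), both copies of 1 pair and 1558 coding genes. Both assays bound 8 (19.5%, against 3.52% of all coding genes), and regions overlapped at 4. With equal numbers of top peaks, ChIP bound 16 (5 alpha, 4 beta, 7 RPN), DAP 7 (17.1%), both assays 3 (7.32%), both copies 0 pairs, and regions overlapped at 2. At that setting 4219 (15.4%) and 4563 (16.6%) coding genes were bound in ChIP and DAP, and 3.21% in both assays. With all 3 ChIP lists required, ChIP bound 14 (3, 4 and 7 by class), both assays 10, both copies of 1 pair and 4006 coding genes, and regions overlapped at 2. Any 1 list gave 18859 coding genes in ChIP, and the gene span alone 7922. Within 500 bp of a gene end both assays bound 17. Shares of coding genes are not given for the 10 and the 17 of both assays, nor for the overlap counts. Those counts have no background here.

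With 1 replicate left out, ChIP bound 14 to 38 genes of the set (3 to 12 alpha, 4 to 10 beta, 7 to 16 RPN), DAP 28 to 31, both assays 10 to 30, and both copies of 1 to 13 pairs. Regions overlapped at 1 to 19 genes, and 4097 to 12162 coding genes were bound in ChIP and 16445 to 17769 in DAP. With a ChIP list left out, a ChIP call needed a peak in both remaining lists. With a DAP list left out, the remaining list sufficed. The low values come from leaving out ChIP replicate 2 or 3, where the short list of replicate 1 had to hold a peak. The 17 genes covered over 50% in replicate 2 became 15 and 7 at a −log10 q of at least 3 and 10, and 29 at a coverage of 25%. For both assays, region overlap and coverage, no share of coding genes is set beside these counts. Beyond these rules for the lists, the cause of the shifts was not tested. Depth is unknown, so a missing peak is not evidence that NAC103 was absent.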
